A study of Mus musculus with 6 samples.

Results

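The genes described here encode the subunits, activators and assembly factors of the proteasome, read from RNA of a mouse macrophage line grown on 2 titanium surfaces. They were chosen by symbol: every gene of the count table that starts with Psma, Psmb, Psmc, Psmd, Psme, Psmf or Psmg and a digit, with pseudogene symbols left out. The rule found 51 of 16171 symbols, and 50 of the 51 had enough reads to be among the 11480 genes tested. Raw264.7 macrophages, of WT genotype in the labels, grew on TH, titanium whose surface was turned into titanate nanowires by alkali and heat (the control, 3 libraries), or on THCaP, a nanowire coating of calcium phosphate (3 libraries). Cells on both surfaces attached over 12 h, received lipopolysaccharide (LPS, a bacterial cell wall molecule to which macrophages respond) at 1 µg/mL for 2 h and stayed in culture for 1 d more, so no group without LPS was compared. Nothing in the labels tells whether separate cultures were used for the libraries, and p-values therefore measure only the spread between these samples. All values come from 1 cell line read in bulk, in which fewer cells of a kind and less RNA per cell cannot be told apart.

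The proteasome degrades proteins tagged with ubiquitin. Its barrel, the 20S core, is a stack of rings of alpha and beta subunits, of which Psmb5, Psmb6 and Psmb7 carry the constitutive cutting sites. In cells that make interferon-induced genes, Psmb8, Psmb9 and Psmb10 take the places of Psmb5, Psmb6 and Psmb7 during assembly, giving the immunoproteasome, and Psme1 with Psme2 form an activator that caps it. This form is known for making peptides that are displayed on MHC class I molecules, and macrophages are among the cells that hold it. The 19S regulatory particle, built of a base with 6 ATPases (Psmc1 to Psmc6) and a lid, recognises, unfolds and feeds in the tagged protein.

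Sequences near the start of 5 members are shown because comparisons that follow turn on these genes. Psmb5 and Psmb6 are the constitutive catalytic genes with a promoter window. Psmb8 takes the place of Psmb5, and the start of Psmb9 lies beside that of the peptide transporter gene Tap1. In the immunoproteasome set only Psme1 matched GAAANNGAA, the core of the interferon-stimulated response element. Letters come from RefSeq (GRCm38.p6), which was searched from 250 bases before to 50 after each start, with windows for 43 of the 51 members. Each sequence runs 5′ to 3′ on the gene's strand. For Psmb5 and Psmb6 the stretch ahead of the gene is printed, with the match to TGACNNNGC in capitals.
Psmb5 (chr14:54618023-54618245, minus strand): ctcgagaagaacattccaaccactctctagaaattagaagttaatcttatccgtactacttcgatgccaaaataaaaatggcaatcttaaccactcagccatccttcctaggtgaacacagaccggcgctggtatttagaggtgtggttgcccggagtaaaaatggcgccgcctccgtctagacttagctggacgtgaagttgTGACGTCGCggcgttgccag
Psmb6 (chr11:70525107-70525366, plus strand): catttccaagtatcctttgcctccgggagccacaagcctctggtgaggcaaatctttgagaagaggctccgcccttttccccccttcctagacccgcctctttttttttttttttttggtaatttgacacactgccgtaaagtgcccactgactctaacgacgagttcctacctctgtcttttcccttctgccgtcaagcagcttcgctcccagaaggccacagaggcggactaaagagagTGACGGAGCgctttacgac
For the other 3 only the match, in capitals, and 10 bases on each side are printed, since in GENCODE vM21, where these genes start further upstream (Psmb8 at 34197721, Psmb9 at 34187764 and Psme1 at 55578123), the RefSeq windows lie inside the genes and the matches lie in a UTR exon. They match TTCNNNGAA in Psmb8, CCAAT read on the other strand in Psmb9 and GAAANNGAA read on the other strand in Psme1.
Psmb8 (chr17:34198088-34198116, plus strand): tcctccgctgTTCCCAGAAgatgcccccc
Psmb9 (chr17:34187324-34187348, minus strand): gcagccgctgATTGGaaagccgagc
Psme1 (chr14:55578494-55578522, plus strand): gagctgtgctTTCGCTTTCccttcccgct

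The letters searched on both strands were GAAANNGAA (the core of the interferon-stimulated response element), TTCNNNGAA (a STAT site), TGACNNNGC (the core of the antioxidant response element, which Nrf1 and Nrf2 can bind) and CCAAT (the NF-Y box). GAAANNGAA lay in 7 of the 43 member windows (16.3%), beside 9.76% of the windows of all 27025 genes, and TTCNNNGAA in 3 (6.98%) beside 9.55%. TGACNNNGC was found in 6 (14.0%) beside 14.0% of all windows: Psmb5, Psmb6, Psmc6, Psmd9, Psmd12 and Psme4. CCAAT was present in 16 (37.2%) beside 41.1%, with 5 of 7 alpha subunit genes. Psmb9 and Tap1 are read in opposite directions, and their windows share 275 bases (chr17:34187306-34187580). A match describes these letters and is not a site that was seen bound.

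Between the surfaces, few of these genes passed the test, and the steps of most were small. Psmc3, Psme3, Psmg2, Psmf1 and Psmc3ip rose on THCaP and Psmd8 and Psmd10 fell, at an edgeR adjusted p under 0.05. The 5 that rose are 10% of the 50 tested members, beside 11.6% of all tested genes called higher, and the 2 that fell are 4%, beside 12.0% called lower. None of the 15 core subunits outside the immunoproteasome and none of the 5 immunoproteasome genes passed. The log2 fold change (THCaP over TH) had a median of 0.21 over the 50 members, with quartiles at 0.045 and 0.32, and stayed within 0.5 of 0 in 46. Over all tested genes the median was 0.0064. It was above 0 in 39 members (78%), beside 50.7% of all tested genes. The 6 libraries did not overlap between surfaces in 12 members that were higher on THCaP (24%, beside 22.1% of all tested genes) and in 4 that were higher on TH (8%, beside 21.3%). The plot of fold changes by role shows this narrow spread.

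**Figure D1:**
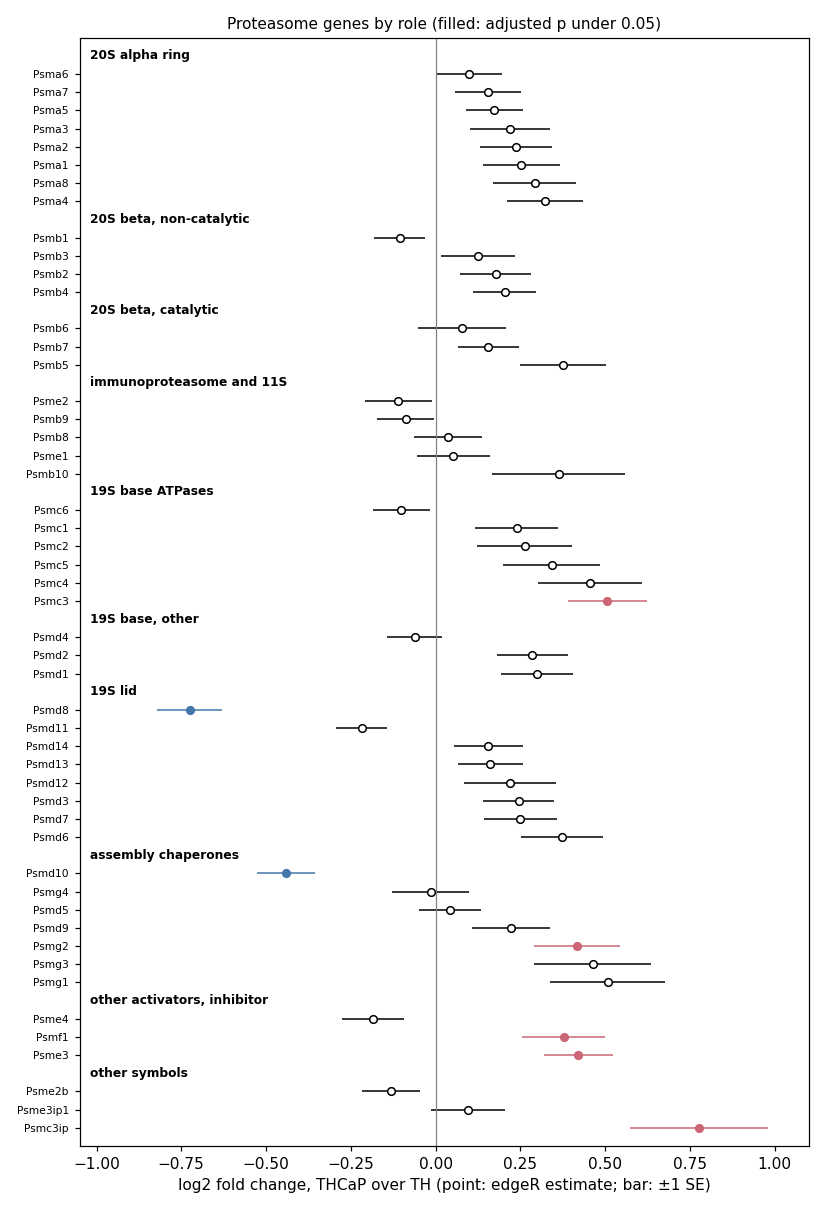
Log2 fold change (THCaP over TH) of each tested proteasome gene on the axis of values, grouped by role, with bars of 1 standard error (edgeR). Most points lie between 0 and 0.5, and Psmd8 at -0.73 and Psmc3ip at 0.78 lie farthest from 0.

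The small steps were carried unequally by the libraries. THCaP replicate 2 was the highest of the 6 libraries in 40 of 50 members (80%), beside 33.1% of all tested genes. The mean log2 level of the 50 members, relative to each gene's mean, was -0.0023, -0.11 and -0.12 on TH and 0.06, 0.27 and -0.09 on THCaP (here and below in the order of replicates 1, 2 and 3). THCaP replicate 3 thus lay among the TH libraries, and the surfaces overlapped in this mean. Without THCaP replicate 2 the median log2 fold change was 0.09, 34 members were above 0, and 2 members (4%) were called higher, beside 6.34% of all genes. Without THCaP replicate 3 the median was 0.30 and 27 members (54%) were called higher, beside 18.5%. DESeq2 on all 6 libraries called 13 members higher (26%), beside 14.7%, and edgeR on library totals without a composition factor 12 (24%), beside 16.6%. With TH replicate 2, TH replicate 3 or THCaP replicate 1 left out, edgeR called 0 members higher. The shares of all genes called higher were 2.54%, 2.54% and 2.51%. At an unadjusted p under 0.05, 8, 7 and 12 members were higher and 2, 3 and 2 lower in these fits. Shares of all genes at that level were not computed for these fits. With all 6 libraries, 18 members were higher and 3 lower at that level, beside 2276 and 2208 of all 11480 genes. The part that the library differences have in the members' median was not tested.

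**Figure D2:**
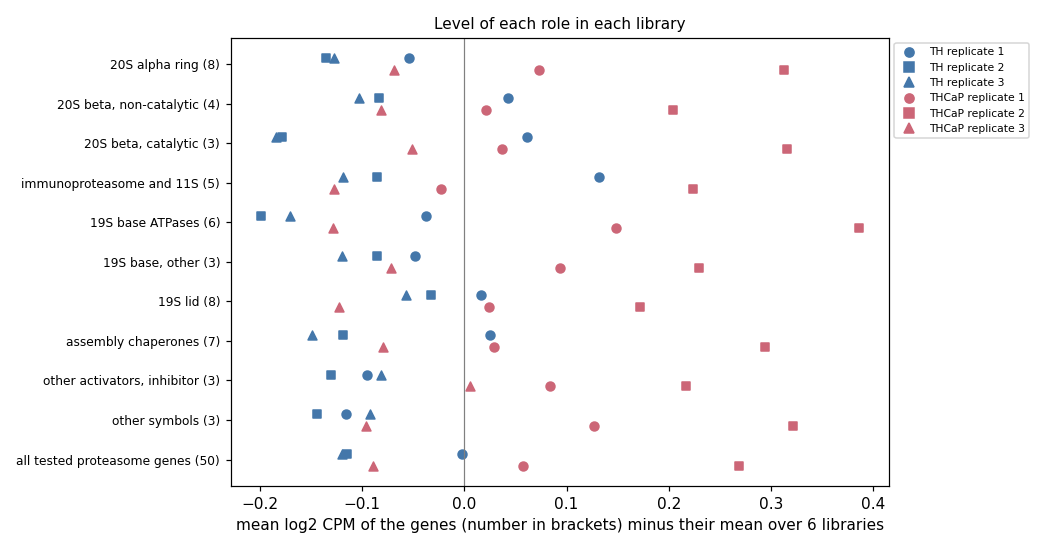
Mean log2 level of the members of each role in each library, relative to each gene's mean over the 6 libraries. THCaP replicate 2 is the highest library in every role drawn, and over all 50 members THCaP replicate 3, at -0.09, lies among the TH libraries.

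The immunoproteasome genes showed no called change, in either direction, on THCaP. Psmb8, the inducible chymotrypsin-like subunit, was read at 174, 159 and 147 CPM (counts scaled to library totals, with edgeR's TMM factors) on TH and at 164, 181 and 147 on THCaP. Its ranges overlapped almost fully, and the log2 fold change was 0.04 (SE 0.10, edgeR adjusted p = 0.806). Psmb9, the inducible subunit that takes the place of Psmb6, was at 42.5, 39.9 and 40.6 CPM on TH. On THCaP it was at 36.9, 41.1 and 37.6 (-0.09, SE 0.08, edgeR adjusted p = 0.457). THCaP replicate 2 lay inside the TH range and the other 2 libraries below it.

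Psmb10, the inducible trypsin-like subunit, was at 26.1, 17.4 and 18.2 CPM on TH and 25.0, 33.5 and 20.9 on THCaP. TH replicate 1 lay above 2 of the THCaP libraries, and the log2 fold change of 0.36 had the widest error of the set (SE 0.20, edgeR adjusted p = 0.196). Without THCaP replicate 3 it was called higher, at 0.51 (edgeR adjusted p = 0.0441), and it was called in no other setting tried. Psme1, the alpha subunit of the activator, was at 112, 98.1 and 91.8 CPM on TH and 98.7, 118 and 96.1 on THCaP (0.05, SE 0.11, edgeR adjusted p = 0.744). Psme2, its beta subunit, was at 85.4, 80.7 and 77.8 CPM on TH and 72.5, 86.0 and 67.6 on THCaP (-0.11, SE 0.10, edgeR adjusted p = 0.440). The surfaces overlapped in both. Psme2 shares 54.9% of its 50-base stretches with other genes, most with its near copy Psme2b, so reads of these 2 may be split or lost. Psme2b was at 34.8, 32.0 and 31.1 CPM on TH and 30.3, 30.2 and 28.8 on THCaP (-0.13, edgeR adjusted p = 0.282). No member of the set had an unadjusted p under 0.05, and DESeq2 and limma-voom called 0 of the 5. The directions of Psmb8 and Psme1 turned without TH replicate 3 (-0.021 and -0.0096) and when THCaP replicate 2 was left out (-0.039 and -0.046).

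The constitutive catalytic subunits were likewise not called. Psmb5 was at 49.0, 41.3 and 40.3 CPM on TH and 54.8, 66.5 and 48.3 on THCaP. Of the THCaP libraries only replicate 3 lay within the TH range, just below TH replicate 1, and the log2 fold change was 0.38 (SE 0.13, edgeR adjusted p = 0.0564). It was called higher in 8 of the 15 alternatives, among them DESeq2 (adjusted p = 0.0258), library totals (0.0354), no filter on low counts (0.0377) and edgeR without TH replicate 1 (0.0483) or THCaP replicate 3 (0.00922). Psmb5 shares 54.1% of its 50-base stretches with other genes, most with the gene model Gm3375. Psmb6 was at 94.4, 72.2 and 74.1 CPM on TH and 79.5, 98.8 and 75.9 on THCaP (0.08, SE 0.13, edgeR adjusted p = 0.684), and at -0.046 without THCaP replicate 2. Psmb7 was at 124, 117 and 115 CPM on TH and 125, 148 and 124 on THCaP (0.16, SE 0.09, edgeR adjusted p = 0.229). The surfaces overlapped in both genes. Psmb11, the form of the chymotrypsin-like subunit made in the thymus, had 0 counts in all 6 libraries, which allows at most 0.107 CPM in any (3 counts, counting error only).

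**Figure D3:**
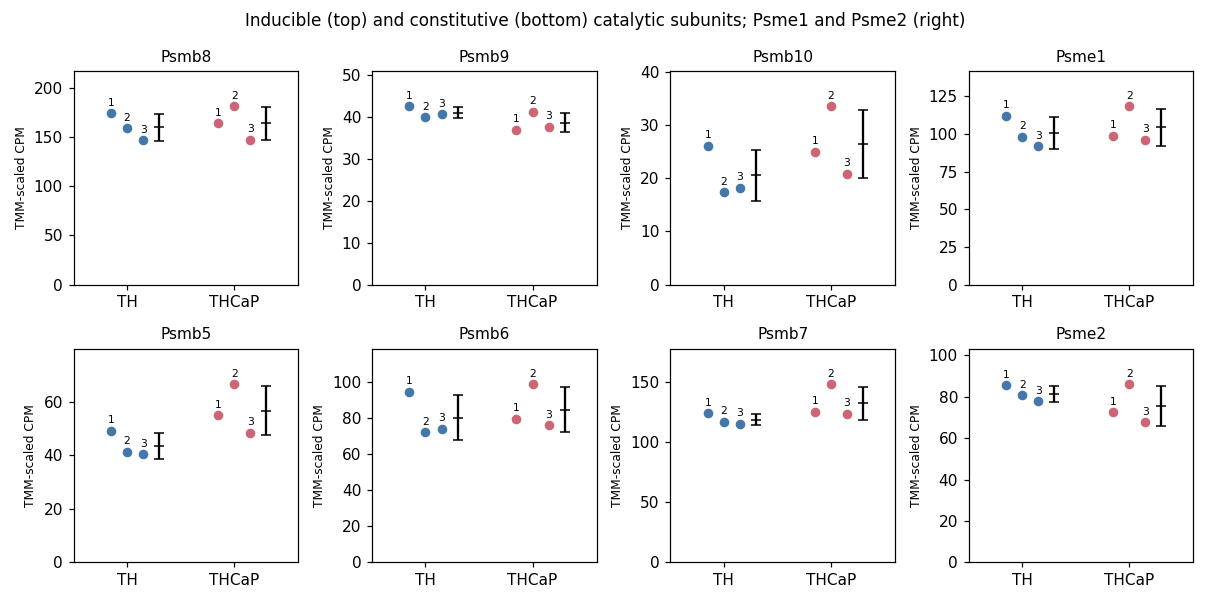
TMM-scaled CPM of the inducible catalytic and activator genes and of the constitutive catalytic genes in each library, with the mean and SD of each surface. The 2 surfaces overlap in all 8 genes.

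The inducible and the constitutive subunit of each place were also compared as a ratio within each library, which does not depend on how libraries are scaled. With counts divided by gene length, Psmb8 was 2.53, 2.74 and 2.60 times Psmb5 on TH and 2.13, 1.94 and 2.17 times on THCaP. All 3 TH libraries lay above all 3 THCaP libraries. The log2 ratio was 1.39 ± 0.06 (SD, n = 3) on TH and 1.06 ± 0.09 (SD, n = 3) on THCaP, a difference of -0.33 (SE 0.06, exact two-sided permutation p = 0.1). That p is the smallest that 3 against 3 libraries can give, and it was 0.3 after adjustment over the 3 ratios compared. The difference ran from -0.37 to -0.29 with 1 library left out. Psmb9 to Psmb6 was 0.456, 0.559 and 0.555 on TH and 0.470, 0.421 and 0.501 on THCaP. TH replicate 1 lay among the THCaP libraries, and the log2 difference was -0.17 (SE 0.12, exact permutation p = 0.3, adjusted p = 0.3). Psmb10 to Psmb7 was 0.175, 0.124 and 0.131 on TH and 0.166, 0.188 and 0.141 on THCaP, again with overlap, and the log2 difference was 0.21 (SE 0.20, exact permutation p = 0.3, adjusted p = 0.3). The 3 ratios therefore did not share a direction. Read per length, Psmb8 was the most abundant of the 6 catalytic genes on both surfaces (128 FPKM, the deposited unit that scales reads by gene length and library total, as the mean on TH, beside 110.3 for Psmb7), and Psmb10 was the least (18.6 FPKM over the 6 libraries).

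Genes that work with the immunoproteasome in class I peptide display were called lower on THCaP in many cases. Of 17 peptide loading genes and interferon-linked regulators tested, 8 fell and 0 rose (edgeR adjusted p under 0.05), beside 12.0% of all tested genes called lower and 11.6% called higher. At an unadjusted p under 0.05, 11 were lower and 0 higher, beside 2208 and 2276 of all 11480 genes, and DESeq2 and limma-voom called 0 higher. Their median log2 fold change was -0.28. The class I heavy chains H2-K1 (-0.61, edgeR adjusted p = 0.00458) and H2-D1 (-0.61, edgeR adjusted p = 0.00347) fell, which are near copies whose reads may be shared. Irf9, the DNA-binding part of the interferon-activated complex ISGF3, fell by 0.60 on the log2 scale (edgeR adjusted p = 0.00454). Nlrc5, the activator of class I genes and of Psmb9, fell by 0.55 (edgeR adjusted p = 0.0278) and missed the threshold when TH replicate 2 (0.102), TH replicate 3 (0.0921) or THCaP replicate 1 (0.0774) was left out. The difference between these genes and the immunoproteasome set was not tested.

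Tap1, a subunit of the transporter that carries proteasome peptides into the endoplasmic reticulum, was named after its values were seen, because it lies head to head with Psmb9. It was at 98.8, 98.5 and 93.0 CPM on TH and 68.8, 64.4 and 73.6 on THCaP. All THCaP libraries lay below all TH libraries, and Tap1 fell by 0.49 on the log2 scale (SE 0.08, edgeR adjusted p = 0.006). Tap2, the other gene of this transporter in the list, was not called (-0.08, edgeR adjusted p = 0.447), and its surfaces overlapped. Per length, Psmb9 was 1.11, 1.05 and 1.13 times Tap1 on TH and 1.39, 1.65 and 1.32 times on THCaP, without overlap. As this pair was picked with both values known, the ratio is given with no test. Exons of Psmb9 and Tap1 overlap over 212 bases on opposite strands, and with no strand setting known for the counting, reads there could belong to either gene. The same holds for 498 bases of Psmb8 and an antisense gene, Gm20496, and 405 bases of Psmb7 and Nek6.

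All 8 alpha subunit genes were above 0, from 0.10 (Psma6) to 0.32 (Psma4), with a median of 0.23, and none was called by edgeR. Without THCaP replicate 2 the median was 0.11 and 7 of the 8 were above 0. These genes form the outer rings and the gate of the core. At an unadjusted p under 0.05, 3 of the 8 were higher (Psma1, Psma4 and Psma8), beside 2276 of all 11480 genes. DESeq2 called 1 higher, beside 14.7% of all tested genes, and limma-voom 0, beside 10.8%. Psma4 was at 126, 113 and 122 CPM on TH and 147, 176 and 129 on THCaP, all 3 above the TH libraries (0.32, SE 0.11, edgeR adjusted p = 0.0615), and it was called in 6 of the 15 alternatives. Psma8, an alpha subunit best known from testis, was the least abundant of the 8 at 6.28 FPKM as the mean of the 6 libraries. The 4 beta subunit genes without a cutting site in the complex, Psmb1 to Psmb4, ran from -0.11 (Psmb1) to 0.20 (Psmb4), and none had an unadjusted p under 0.05. DESeq2 and limma-voom called 0 of these 4. THCaP replicate 2 was the highest library in 14 of the 15 core genes outside the immunoproteasome.

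In the base of the regulatory particle 1 of 6 ATPase genes was called higher, beside 11.6% of all tested genes. Psmc3, an ATPase of the ring that pulls the substrate into the core, was at 78.1, 75.8 and 74.4 CPM on TH and 107, 127 and 90.0 on THCaP. Every THCaP library lay above the TH libraries, which were close together. Psmc3 rose from 76.1 ± 1.87 to 108 ± 18.6 CPM (SD, n = 3), a log2 fold change of 0.51 (SE 0.12, edgeR adjusted p = 0.0171). Its edgeR adjusted p was 0.0662 without TH replicate 2, 0.0699 without TH replicate 3 and 0.0575 without THCaP replicate 1. Over 215 exon bases it overlaps Slc39a13 on the other strand. The other 5 ATPase genes ran from -0.10 (Psmc6) to 0.45 (Psmc4, edgeR adjusted p = 0.0558). DESeq2 called 2 of the 6 higher (Psmc3 and Psmc4), beside 14.7% of all tested genes. Of the other base genes, the scaffold genes Psmd1 (0.30, edgeR adjusted p = 0.065) and Psmd2 (0.29, edgeR adjusted p = 0.0726) had no overlap between surfaces and were not called by edgeR. DESeq2 called both higher (adjusted p = 0.035 and 0.0426), as did 5 of the 15 alternatives in all, while the ubiquitin receptor gene Psmd4 was at -0.06.

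The lid held the member with the largest decrease. Psmd8, a lid subunit that joins last and helps the lid dock on the base (chr7:29174188-29180701, minus strand, GENCODE vM21 on GRCm38), was at 559, 556 and 564 CPM on TH and at 329, 302 and 384 on THCaP. The TH libraries were nearly equal, and all THCaP libraries lay far below them. Psmd8 fell from 560 ± 4.24 to 338 ± 42.0 CPM (SD, n = 3), which is 1.65-fold lower, by 0.73 on the log2 scale (SE 0.10, edgeR adjusted p = 0.00331). The call held in every setting tried, with log2 fold changes from -0.65 without THCaP replicate 2 to -0.83 without THCaP replicate 3. No exon of another gene overlaps it, and 0% of its 50-base stretches occur in another gene's transcripts.

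Psmd8 also stood apart from its partners in level. It was at 364, 362 and 363 FPKM on TH and 222, 203 and 259 on THCaP, with a mean of 295 over the 6 libraries, the highest of all members. The other 7 lid genes had means between 42.2 and 69.1 FPKM. Against Psmd14, the lid's deubiquitinating enzyme, it was 6.45, 6.14 and 6.37 times as abundant per length on TH and 3.35, 2.69 and 4.50 times on THCaP. This ratio was formed after the values were seen and is given with no test. The other 7 lid genes ran from -0.22 (Psmd11) to 0.37 (Psmd6, edgeR adjusted p = 0.0514), with a median of 0.22, and edgeR called none. DESeq2 called Psmd6 higher (adjusted p = 0.0216), and 7 of the 15 alternatives did in all. Psmd11, a scaffold of the lid, was the only other lid gene below 0. It was at 179, 187 and 178 CPM on TH and 159, 161 and 148 on THCaP, without overlap (SE 0.08, edgeR adjusted p = 0.0604), and 2 alternatives called it lower, among them DESeq2 (adjusted p = 0.0289).

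**Figure D4:**
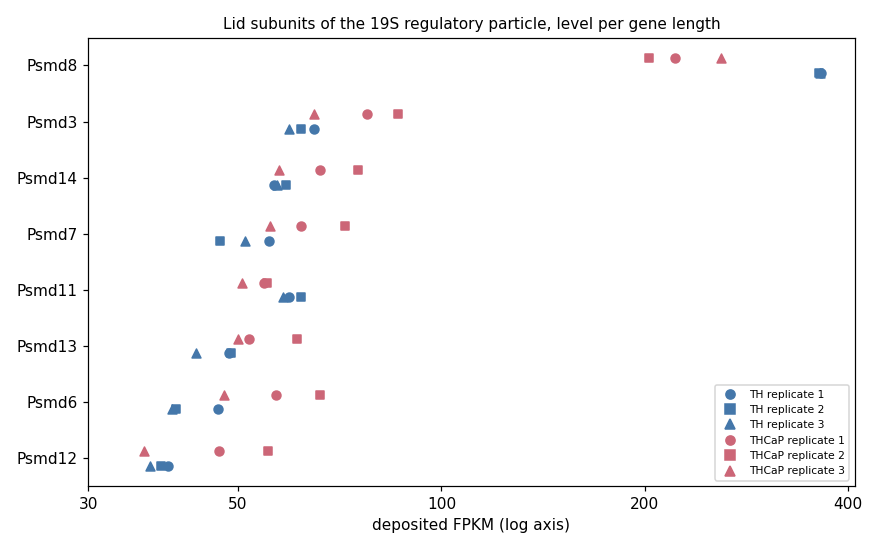
Level of the 8 lid genes in FPKM (deposited values, log axis) in each library of TH and THCaP. Psmd8 lies at 203 to 364 FPKM, above the other 7, and its 3 THCaP libraries lie below its 3 TH libraries.

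Among 7 genes for assembly factors, 1 rose and 1 fell, beside 11.6% of all tested genes called higher and 12.0% called lower. Psmd10 (gankyrin), a chaperone that holds the ATPase Psmc4 during assembly of the base, was at 45.1, 47.9 and 44.8 CPM on TH and 31.3, 35.3 and 34.9 on THCaP. The surfaces did not overlap, and Psmd10 fell from 45.9 ± 1.72 to 33.8 ± 2.21 CPM (SD, n = 3), by 0.44 on the log2 scale (SE 0.09, edgeR adjusted p = 0.0096). Without THCaP replicate 1 the adjusted p was 0.06. Psmg2, a chaperone of alpha ring assembly, was at 19.4, 16.9 and 17.3 CPM on TH and 24.6, 27.1 and 19.9 on THCaP. THCaP replicate 3 lay just above the highest TH library. Psmg2 rose by 0.42 (SE 0.13, edgeR adjusted p = 0.0416), and it missed the threshold with any 1 library but THCaP replicate 3 left out (edgeR adjusted p from 0.0518 to 0.14). Its partner in the same chaperone pair, Psmg1, was at 0.51 (SE 0.17, edgeR adjusted p = 0.0545) without overlap, and Psmg3 at 0.46 (SE 0.17, edgeR adjusted p = 0.0756) with overlap. DESeq2 called 3 of the 7 assembly genes higher, beside 14.7% of all tested genes: Psmg2, Psmg1 (adjusted p = 0.0166) and Psmg3 (adjusted p = 0.037). Psmg1 was called in 7 and Psmg3 in 3 of the 15 alternatives. Psmg4, the partner of Psmg3, was at -0.01 and above 0 with library totals, the only member whose sign that scaling turned, Psmd5 at 0.04 and Psmd9 at 0.22.

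Of 3 genes for the other activators and the inhibitor, 2 rose, beside 11.6% of all tested genes called higher. Psme3, an activator of the nucleus that opens the core for proteins without ubiquitin, was at 173, 171 and 171 CPM on TH and 223, 266 and 201 on THCaP. All THCaP libraries were higher, and Psme3 rose from 172 ± 1.16 to 230.0 ± 32.7 CPM (SD, n = 3), by 0.42 on the log2 scale (SE 0.10, edgeR adjusted p = 0.0204). Left-out libraries moved its edgeR adjusted p to 0.0762 (TH replicate 2), 0.0781 (TH replicate 3) and 0.0659 (THCaP replicate 1). Psmf1 (PI31), known as an inhibitor of the core, was at 27.1, 20.9 and 23.4 CPM on TH and 30.3, 34.6 and 27.9 on THCaP. Its lowest THCaP library stood just above its highest TH library, and Psmf1 rose by 0.38 (SE 0.12, edgeR adjusted p = 0.0489). That call was lost with limma-voom (0.0507), with RLE factors (0.05) and on leaving out replicate 2 or 3 of TH (0.177 and 0.145) or replicate 1 or 2 of THCaP (0.125 and 0.128). Psme4, an activator named PA200, was at 133, 163 and 161 CPM on TH and 134, 130 and 137 on THCaP (-0.18, edgeR adjusted p = 0.169), with TH replicate 1 among the THCaP libraries.

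Psmc3ip carries the symbol of an ATPase but is known as a recombination factor of meiosis. At 5.92, 7.06 and 7.13 CPM on TH and 11.3, 14.9 and 8.28 on THCaP, it had the lowest level per length of all tested members (3.38 FPKM over the 6 libraries), and it rose by 0.78 (SE 0.20, edgeR adjusted p = 0.0261), with no overlap. It kept its call only when THCaP replicate 3 was the library left out (edgeR adjusted p from 0.0571 to 0.0764 without another), and 385 of its exon bases overlap Mlx on the other strand. Psme3ip1, a partner of Psme3, was at 0.10 (edgeR adjusted p = 0.543). The plot of called genes gives their libraries beside Psmd11.

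**Figure D5:**
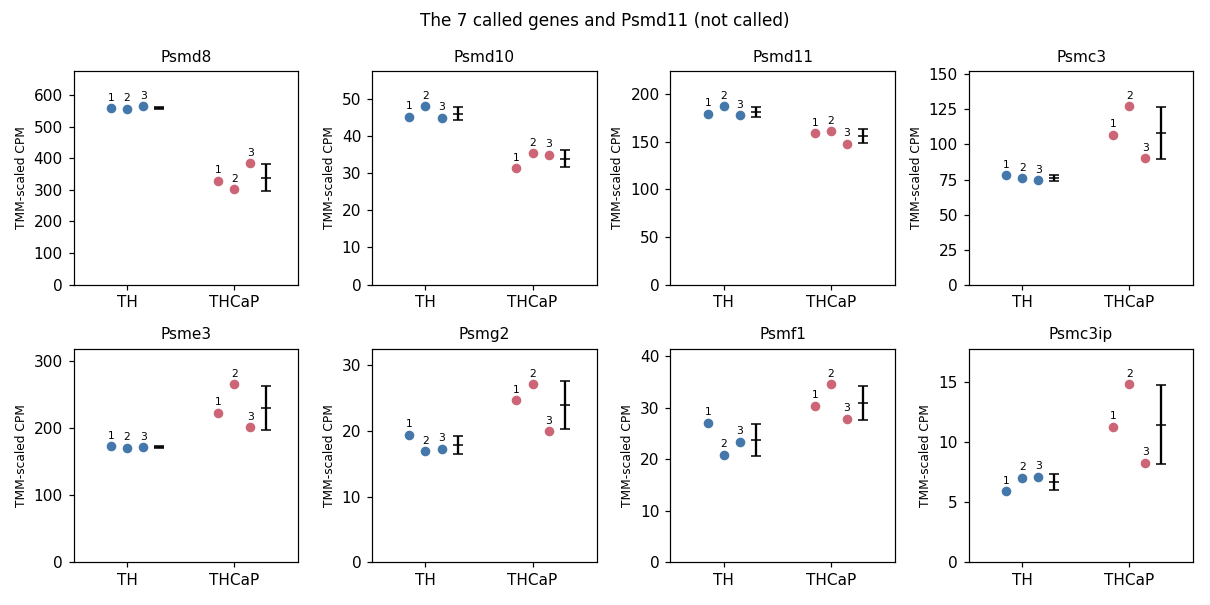
TMM-scaled CPM of the 7 called genes and of Psmd11, which was not called, in each library, with the mean and SD of each surface. In the 5 genes that rose, THCaP replicate 2 is the highest library and THCaP replicate 3 the lowest on THCaP, and Psmd8 is lowest in THCaP replicate 2.

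Genes that work with the proteasome but carry other symbols were read from lists chosen with earlier results known. Of 7 partners, among them the maturation factor Pomp and the ubiquitin receptor Adrm1, edgeR, DESeq2 and limma-voom each called 0. At an unadjusted p under 0.05 in edgeR, 2 were higher and 0 lower, beside 2276 and 2208 of all 11480 genes. Pomp was at 0.24 (edgeR adjusted p = 0.085).

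Of 8 genes for Nrf1, Nrf2 and the proteins that process, anchor or pair with them, 4 fell and 0 rose, beside 12.0% of all tested genes called lower and 11.6% higher, with 1 higher at an unadjusted p under 0.05 and 0 called higher by DESeq2 or limma-voom. Nrf1, encoded by Nfe2l1, is known to drive proteasome genes when the proteasome is inhibited. Nfe2l1 was at 283, 322 and 328 CPM on TH and 242, 224 and 253 on THCaP, with no overlap, and fell by 0.37 (SE 0.09, edgeR adjusted p = 0.0183). Leaving out TH replicate 2 (0.0765), TH replicate 3 (0.0874) or THCaP replicate 1 (0.0764) ended the call. The small Maf genes, whose proteins pair with Nrf1 and Nrf2, fell as well: Maff by 0.95 (edgeR adjusted p = 0.00315), Mafk by 0.57 (0.00835) and Mafg by 0.45 (0.00982). Mafg missed the threshold without TH replicate 2 (0.0514) or THCaP replicate 1 (0.0555).

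The libraries held 28000099 to 30317108 counts, and each of the 50 tested members had at least 177 counts in each library, so none entered the test through 1 surface alone. The cells carried macrophage markers on both surfaces: 9 of 10 were at 1 CPM or more, with sums of 2944 to 3439 CPM on TH and 3089 to 3332 on THCaP. Single markers went both ways: Lyz2 was called higher on THCaP (0.63, edgeR adjusted p = 0.0223) and Csf1r was higher without overlap (0.31, 0.0504), while Cd14 (-0.35, 0.0501), Cd68 (-0.23, 0.0643) and Ptprc (-0.19, 0.0998) were lower without overlap. Markers of stromal and bone-forming cells summed to 0.793 to 1.33 CPM on TH and 0.875 to 0.970 on THCaP, those of lymphocytes to 0.401 to 0.681 and 0.307 to 0.735, and those of neutrophils to at most 0.036, with S100a8 at 0. Endothelial markers summed to 5.23 to 6.42 CPM on TH and 2.91 to 4.91 on THCaP, without overlap, and only Pecam1 reached 1 CPM (-0.66, edgeR adjusted p = 0.0613). The part of these markers in the members' values was not tested.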

How the data were processed

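The deposited table holds whole-number read counts per gene symbol, not normalised. Fastp, HISAT2 and HTSeq were used by the authors with build mm10, per the submitters' processing notes. Versions, annotation and strand setting: not given in the sources used here. The FPKM values deposited by the authors come from the same counts, since FPKM and count gave a whole gene length (within 0.05 bases) for 100% of 11923 genes. They served for levels between genes, for lengths and in alternatives. Fold changes of the FPKM alternatives are on the log2(FPKM + 1) or log2(FPKM + 0.1) scale, which understates changes of low genes.

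In R 4.3.3, edgeR 4.0.16 was run over all 6 libraries with filterByExpr (minimum count 10, minimum total 15), TMM factors and a robust quasi-likelihood F test with no covariate. Calls needed an adjusted p (Benjamini-Hochberg, over 11480 genes) under 0.05. Standard errors (SE) were taken as the size of the log2 fold change over the root of F. The fit was also run on simulated counts drawn separately for each gene, and the outcome is not given here. Apart from their totals, the simulated libraries of a surface did not differ, so the run cannot tell how calls depend on single libraries. Ratios were compared by an exact permutation test over libraries, adjusted over 3 ratios.

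The members and lists were chosen with earlier results of these data known. Values by library were given for the immunoproteasome and constitutive catalytic genes and for up to 4 called genes with the largest change each way. In each role, called genes are named and the rest summarised. For other lists, up to 4 called genes with at least 5 CPM are named, and 1 list is not reported here. Genes given in more detail than these limits allow (Psma4, Psmd11, Psmg1, Psmg3, Psme2b, Psme4, Tap1, Pomp and the like) were chosen after their values were seen. Alternatives were DESeq2 1.42.0, limma-voom and limma 3.58.1 on FPKM, RLE factors, library totals, no filter, at least 5 CPM in 3 libraries, a replicate block and each library left out.

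Libraries of a surface differed by 3.84 to 48.4 chi-square per degree of freedom over genes, so none was a repeat of another. Positions and 50-base stretches came from GENCODE vM21 (GRCm38, the assembly behind mm10), in which all 51 members were found (Psme3ip1 as Fam192a). Promoters came from RefSeq.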

Additional observations from a re-analysis of the deposited data

How the results depend on the processing

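The count of members called higher, 5 of 50, depended on the setting. It was 12 with library totals (beside 16.6% of all genes), 10 with no filter on low counts (9.34%), 10 with the replicate block (12.4%), and 13 with DESeq2 (14.7%), log2(FPKM + 1) (17.6%) and log2(FPKM + 0.1) (17.5%). With 1 library left out it ran from 0 to 27, while 2.51% (without THCaP replicate 1) to 18.5% (without THCaP replicate 3) of all genes were called higher. The count of members called lower ran from 1 to 3. Of all genes, 4.01% (without THCaP replicate 1) to 17.4% (without THCaP replicate 3) were called lower. The count over all genes, 2709, ran from 756 to 4165 with 1 library left out. Its split, 1333 higher and 1376 lower, was 1904 and 1063 with library totals and 1762 and 964 with log2(FPKM + 1), where the median of all genes was 0.06. The cause of these shifts was not tested. Whether the replicate numbers pair the samples is not stated. Same-numbered libraries had correlations of -0.02, -0.07 and 0.06 in their deviations from the means of their surface. Not every library correlated best with its own number. With 3 libraries on each surface, these values cannot tell whether the samples were paired. Of the fold changes of 37 named genes in 15 alternatives, 455 of 555 kept direction and side of the threshold, 54 passed it newly, 41 no longer passed and 5 reversed. With 1 library left out, Psmb6 ran from -0.046 (THCaP replicate 2) to 0.21, Psmb8 from -0.039 (THCaP replicate 2), with -0.021 for TH replicate 3, to 0.11, and Psme1 from -0.046 (THCaP replicate 2), with -0.0096 for TH replicate 3, to 0.13. The 3 ratios kept their direction in all alternatives, and within the replicate block the exact sign-flip p was 0.25 for Psmb8 to Psmb5, the smallest that 3 pairs can give, and 0.5 for the other 2. The lowest count of a tested member was 177.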
